A study of Mus musculus with 16 samples.

Results

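In MC38 cells, a mouse tumour cell line, 3784 of the 19236 N6-methyladenosine (m6A) peaks called in WT cells had no counterpart in the Ythdf2-KO cells, 19.7% of the list (exact 95% interval 19.1 to 20.2%). The members were chosen by the called peaks themselves: a WT peak was taken as control-only when none of its exonic blocks shared a base, on the same strand, with any exonic block of the KO list. The other 15452 WT peaks are called shared. The KO list was shorter, with 17428 peaks, of which 1860 had no WT peak by the same rule. The control-only peaks lay in 2953 genes, which fall into 2 classes. In 1840 genes, holding 2400 of these peaks (63.4%), the KO list still had another peak, and in 1113 genes, holding 1384 peaks (36.6%), it had none.

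m6A was mapped by immunoprecipitation of fragmented polyadenylated RNA with an m6A antibody (MeRIP), in 3 libraries of WT cells, titled gNC, and 3 of Ythdf2-KO cells, titled gY2, each with a matched input library. YTHDF2 binding was mapped in WT cells by RNA immunoprecipitation (RIP), with 2 libraries and 2 inputs. All cells were grown in the same medium, without a treatment being named, and the labels do not say whether the knockout is 1 clone or a pool, or whether replicates are separate cultures. If they are repeats of 1 culture, the p-values below measure technical spread only. There is 1 peak list for the WT libraries, 1 for the KO libraries and 1 for the RIP, so the presence of a peak has no replicate error and no peak-level test between the genotypes could be made. The number of immunoprecipitated reads is not known from the lists, so a missing peak means that none was called, not that m6A was absent.

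m6A is written into mRNA by a methyltransferase complex built around METTL3 and METTL14, mostly at adenosines in the DRACH consensus (where D is any base but cytosine, R a purine and H any base but guanine), of which GGACT is the classic form. It is known to gather in long internal exons and around the stop codon. YTHDF2 reads the mark and recruits the CCR4-NOT deadenylase, so that marked mRNAs are destabilised, and it is not itself a writer or an eraser of m6A.

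The 6 input libraries held 45441281 to 50959555 counts. Ythdf2 mRNA measured 55.6, 68.6 and 59.7 CPM (counts scaled to the size of the library) in the WT inputs and 67.9, 59.8 and 61.5 in the KO-labelled inputs (edgeR log2 fold change 0.04, SE 0.10, adjusted p = 0.81). The levels overlapped, so the mRNA count does not check the genotype, and a frameshift need not change it. The cells are accordingly called KO-labelled. In a principal component analysis of the inputs, the KO-labelled replicate 1 lay between the WT libraries and the other two KO-labelled libraries. The label says nothing of lineage beyond MC38. None of 6 epithelial markers reached 1 CPM, with Epcam and Krt18 at 0 counts, whereas all 5 fibroblast markers did (Col1a1, Col1a2, Dcn, Lum and Pdgfra, summed to 225 to 306 CPM per library). None of 5 colon epithelium markers did, but Cd68 and Lyz2 of 6 leukocyte markers and Cdh5 of 4 endothelial markers did. The leukocyte markers summed to 67.5 to 87.0 CPM in the WT libraries and 52.0 to 129 in the KO-labelled ones.

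The peaks shown first are those on which the later results turn. Ccl2, H2-D1 and Pgam1 carried long control-only peaks in coding sequence while their mRNAs stayed abundant in the KO-labelled cells. A peak of Cep164 is added because its 121 bases are the median length of a control-only peak. In other ways it is not typical. Its deposited score of 2e-06 is weaker than their median of 1e-08, and it lies only 28 exonic bases from a KO peak. In each sequence, read 5′ to 3′ on the transcript strand from GENCODE M21 (GRCm38, the mm10 assembly), every DRACH match is in capitals. The stretches are the coding part of the Ccl2 peak in exon 3 (chr11:82036944-82037178, plus strand), the whole H2-D1 peak in exon 2 (chr17:35263402-35263611, plus strand), the spliced coding part of the Pgam1 peak from exon 1 onwards (chr19:41912048-41915666, plus strand, with the intron left out) and the whole Cep164 peak in exon 23 (chr9:45775198-45775318, minus strand).
Ccl2: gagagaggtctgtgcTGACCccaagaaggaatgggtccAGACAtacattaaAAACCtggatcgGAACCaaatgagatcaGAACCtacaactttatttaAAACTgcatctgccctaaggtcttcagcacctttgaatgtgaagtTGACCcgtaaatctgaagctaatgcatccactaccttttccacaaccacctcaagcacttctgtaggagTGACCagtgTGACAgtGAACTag
H2-D1: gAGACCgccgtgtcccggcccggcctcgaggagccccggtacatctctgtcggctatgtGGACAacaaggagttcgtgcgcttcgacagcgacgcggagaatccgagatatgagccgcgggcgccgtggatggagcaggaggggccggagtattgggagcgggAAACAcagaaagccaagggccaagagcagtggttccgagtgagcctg
Pgam1: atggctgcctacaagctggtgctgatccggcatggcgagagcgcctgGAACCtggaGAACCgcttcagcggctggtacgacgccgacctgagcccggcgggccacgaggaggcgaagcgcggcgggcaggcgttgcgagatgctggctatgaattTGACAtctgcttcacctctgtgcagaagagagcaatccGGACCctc
Cep164: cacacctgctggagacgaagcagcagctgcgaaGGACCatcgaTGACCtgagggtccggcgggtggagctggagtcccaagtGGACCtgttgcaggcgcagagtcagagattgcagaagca
The 235 bases of Ccl2 held 10 DRACH matches, the 210 of H2-D1 held 3, the 201 of Pgam1 held 4 and the 121 of Cep164 held 3. GGACT was in none of these 4 stretches. The whole Ccl2 peak of 271 bases held 12 DRACH matches and 1 GGACT, the latter outside the printed part.

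Control-only peaks of other named genes also held GGACT. The 25-base windows centred on it show its surroundings, with GGACT (and no other match) in capitals. The first 4 windows are from genes without a KO peak and the last is from Junb, which kept another KO peak. They lie at chr12:55489884-55489908 (Nfkbia, minus strand, 3′ UTR), chr7:34202295-34202319 (Gpi1, minus strand, 3′ UTR), chr16:22059629-22059653 (Igf2bp2, minus strand, 3′ UTR), chr11:100695182-100695206 (Dhx58, minus strand, coding) and chr8:84977259-84977283 (Junb, minus strand, 3′ UTR).
Nfkbia: aaaagaatgtGGACTtgtatatttg
Gpi1: tagttggcctGGACTacaaggctgt
Igf2bp2: aagaaagaatGGACTctctctccat
Dhx58: atatcctgcaGGACTgcacacaaag
Junb: ctcacacactGGACTccggcccgcc
In Nfkbia the GGACT window was centred 23 bases past the stop codon and in Gpi1 104 bases past it. That of Dhx58 lay 40 bases before the stop codon, that of Junb 121 bases past it and that of Igf2bp2 1149 bases past it, deep in the 3′ UTR.

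Control-only peaks were short and weakly called, which is a description and not a test, because the same list chose them. Their median exonic length was 121 bases, against 299 for shared peaks, and the median of the score deposited with each peak, which reads as a p-value and is lower for a stronger peak, was 1e-08, against 1e-29. Only 198 of them (5.23%) had a score of 1e-20 or lower, against 62.9% of shared peaks. Of WT peaks with a score under 1e-50, 0.527% were control-only (27 of 5119), and of those at 1e-07 and above 67.8% were (1372 of 2023). By length, the share was 60.2% up to 100 bases, 36.1% from 101 to 200, 8.53% from 201 to 400 and 1.60% over 400. It also ran with the level of the host mRNA, at 36.5% in the lowest of 5 equal bins of WT peaks by input CPM per kb of gene and 13.02% in the highest. The number of WT peaks in the gene made less difference, with 22.3% of lone peaks and 18.7% of peaks in genes with 5 or more being control-only.

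**Figure D1:**
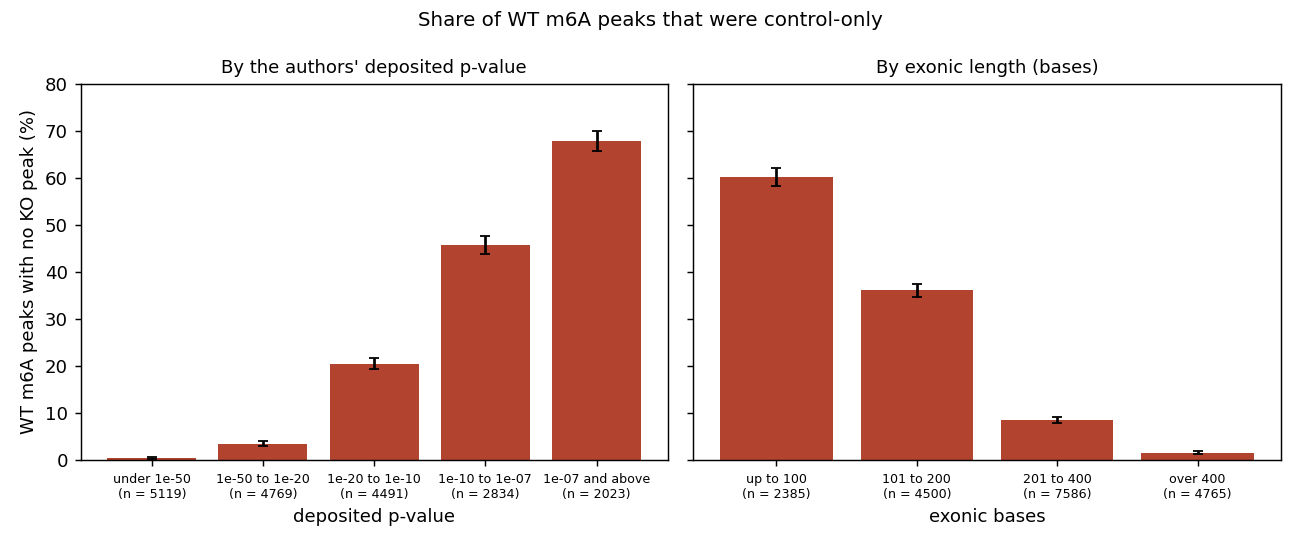
Percent of WT m6A peaks that were control-only (vertical axis) in bins of the authors' deposited score, read as a p-value (left) and of exonic length in bases (right). Bars are shares, whiskers exact 95% intervals for counting error, and n is the number of WT peaks. The share rises from 0.527% to 67.8% as the score grows and falls from 60.2% to 1.60% as peaks lengthen.

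At the threshold itself, the closest control-only peaks stood 28 exonic bases from a KO peak of the same gene, in Ccdc173, Lhx6, Zfp317 and Cep164. Just outside it, shared peaks of Spaca6, Rbl1, Psmg3 and Ifi203 met a KO peak by 1 base, and 69 shared peaks did so by at most 10 bases. Where a control-only peak's gene kept a KO peak and the distance could be measured along exons (2398 peaks), the median gap was 658 bases, with quartiles of 294 and 1617. The gap was 100 bases or less for 169 peaks (7.05%) and over 1000 bases for 917 (38.2%). Of the 1840 genes, 1736 also held a shared peak, and 397 (21.6%) also held a peak called only in the KO list. On the opposite strand, 46 control-only peaks had a KO peak at the same place, and 218 had a WT peak there. An example is the minus-strand Ube2l3 peak (chr16:17159969-17171764, score 1e-142), which lies over the plus-strand Ydjc peak (chr16:17159953-17160193, score 1e-141). Both were control-only, and the overlapping pair cannot be separated by position.

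Most hosts were protein-coding genes, with 3358 peaks (88.7%), followed by lincRNAs with 128 (3.38%) and antisense transcripts with 101 (2.67%). Among genes without a KO peak, 902 had a single WT peak and 211 had more. Zfp469, a zinc finger gene, lost all of its 10 peaks, each short or of moderate score (6.3e-13 to 5e-05). Its input level was 41.2, 26.4 and 26.4 CPM in WT and 27.7, 8.53 and 9.52 in the KO-labelled cells. These groups overlapped, and the gene did not pass the test (adjusted p = 0.18). Syne1, which encodes a giant nuclear envelope protein that links the nucleus to the cytoskeleton, had 8 control-only peaks among its 12, all in coding exons, from exon 65 to exon 130 of 146. Dido1, a PHD-finger protein gene, had 6 of its 9 peaks control-only, 5 of them in its 16th and last coding exon on the transcript used. The symbol Ndor1 had 7, but these came from 3 overlapping gene models and repeat the same places.

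Plin4 and Maf each had 6 peaks, all of them control-only. Plin4 encodes a perilipin, a lipid-droplet coat protein whose large central exons are built of a repeat. A similar GGACT context recurred in several of its peaks, but not at every GGACT. The window at chr17:56104049-56104073 had an unlike context, that at chr17:56107003-56107027 differed in a few bases, and neither is printed. Windows from 4 other places on chromosome 17 (minus strand, coding) show the recurring context, with GGACT in capitals. They are at chr17:56104231-56104255, chr17:56104528-56104552, chr17:56106805-56106829 and chr17:56106904-56106928.
Plin4 repeat 1: ggtgaccacaGGACTcacaggtgcc
Plin4 repeat 2: ggtgaccacaGGACTcacaggggct
Plin4 repeat 3: agtaaccacaGGACTcacaggggcc
Plin4 repeat 4: ggtgaccacaGGACTcacaggggct
Reads from such copies are hard to place, so the positions of peaks within Plin4 are uncertain. Plin4 mRNA was 19.8, 19.8 and 18.3 CPM in the WT inputs and 8.49, 2.54 and 2.70 in the KO-labelled inputs, with no overlap. It fell by 2.07 on the log2 scale (SE 0.45, adjusted p = 0.0497 by edgeR's quasi-likelihood test). Maf, a bZIP transcription factor gene with a strong peak at chr8:115707044-115707764 (score 1e-104), stood at 25.5, 24.8 and 24.7 CPM in WT and at 13.4, 3.37 and 3.002 in the KO-labelled cells. All KO-labelled values were lower, but with their spread the log2 fold change of -1.92 (SE 0.54) gave an adjusted p of 0.077.

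Along the transcript, control-only peaks lay more often in both UTRs than shared ones, and their split was nearer to an even spread. Of the 2802 that could be placed on the gene's representative coding transcript, 6.53% had their centre in the 5′ UTR (exact 95% interval 5.64 to 7.51%), 51.7% in coding sequence and 41.8% in the 3′ UTR. The corresponding shares of 13412 placed shared peaks were 3.48, 63.4 and 33.1%. Centres spread evenly over the same transcripts would give 7.51, 53.7 and 38.8% for control-only peaks and 7.16, 55.4 and 37.5% for shared ones. The 5′ UTR share of control-only peaks was thus below an even spread. Within 200 bases of the stop codon lay 22.4% of control-only peaks (20.9 to 24.0%) and 26.5% of shared peaks, where centres spread evenly over the same transcripts would give 12.2 and 12.6%. Restricted to genes that held both kinds, the 5′ UTR share was 7.21% against 2.94%, the 3′ UTR share 38.9% against 27.6% and the stop-codon share 16.6% against 19.2%. In those genes, 11.8% of control-only and 22.6% of shared peaks were centred in internal exons over 400 bases. These intervals count peaks, which share genes and libraries, and were not tested over samples. More control-only than shared peaks fell outside the scheme, since 11.5% lay in genes without a coding transcript, against 4.74%, and 8.03% in exons of noncoding transcripts of coding genes, against 4.32%.

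The 2 classes of control-only peak differed in place. Near the stop codon lay 32.9% of those in genes without a KO peak and 17.2% of those in genes with another one, where evenly spread centres would give 16.0 and 10.4%. Where the control-only peak was the sole WT peak of its gene, 35.9% lay there (32.3 to 39.7%), against 47.6% of shared lone peaks (45.7 to 49.4%). Trp53, the p53 gene, and Cdkn1a, which encodes the p21 cell-cycle inhibitor, had peaks centred in the 5′ UTR. Trp53's lay in exon 1 (chr11:69580389-69580479) and Cdkn1a's, the lower-score of its 2 peaks, was a spliced interval of 2 blocks (chr17:29091901-29093945). Ccnb1 and Ccnb2, the mitotic B-type cyclins, had them in the 3′ UTR, 10 and 182 bases past the stop codon.

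**Figure D2:**
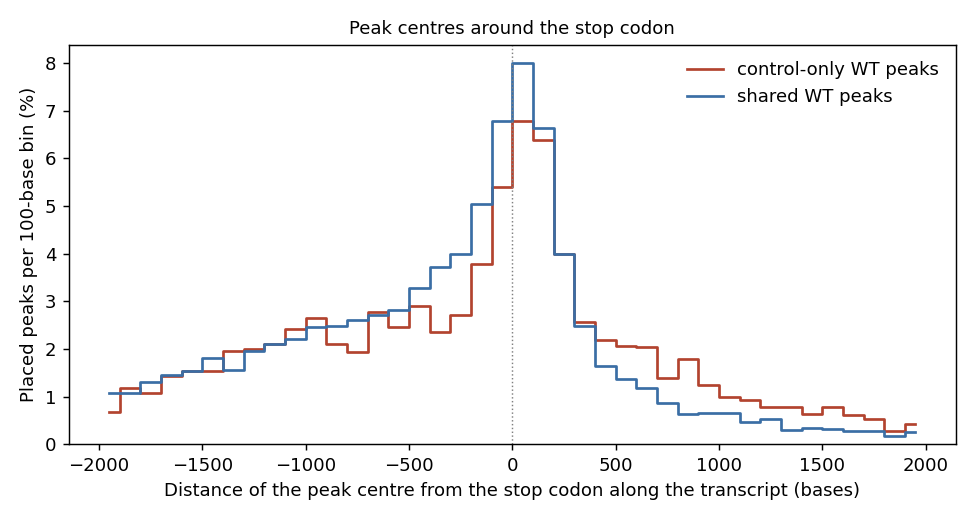
Percent of placed WT m6A peaks (vertical axis) in 100-base bins of the distance from peak centre to stop codon along the transcript (horizontal axis, bases), for control-only and shared peaks. Both lines peak at the stop codon, with 22.4% of control-only and 26.5% of shared centres within 200 bases, and the control-only line lies above the shared line farther into the 3′ UTR.

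The density of consensus letters was alike in control-only and shared peaks taken whole, and that of GGACT was lower in control-only peaks of matched length. GGACT occurred in 18.8% of 3764 control-only peaks with sequence (17.5 to 20.04%) and in 39.0% of 15406 shared peaks. Unpeaked windows of the same lengths on the same transcripts held it in 13.1 and 26.3%. Per kb, the density was 1.49 in control-only and 1.52 in shared peaks, against 0.985 and 0.975 in the unpeaked windows. DRACH, searched on the transcript strand only and including GGACT, stood at 24.2 per kb in both kinds of peak and at 19.0 and 18.8 in their unpeaked windows, a ratio of 1.27 and 1.29. The same letters in reverse order, a control for base composition, gave ratios of 1.13 and 1.20. For peaks of 101 to 200 bases the GGACT shares were 20.5 and 22.7%, with overlapping intervals, and up to 100 bases they were 9.59% (8.12 to 11.2%) and 14.0% (11.8 to 16.3%), which do not overlap. GGACT per kb was 1.52 against 1.65 at 101 to 200 bases, 1.36 against 1.92 up to 100 bases, 1.65 against 1.96 in the 3′ UTR, 1.37 against 1.34 in coding sequence and 1.34 against 1.45 in genes with both kinds. No DRACH match was present in 9.59% of control-only and 1.77% of shared peaks, without matching for length. The gap was smaller at matched length, with 20.03 against 16.9% up to 100 bases and 4.203 against 2.79% at 101 to 200 bases. A match is only a description of the letters, and the base that was methylated is not resolved by these peaks.

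YTHDF2 RIP peaks overlapped fewer control-only than shared m6A peaks. By at least 1 shared base, 1399 of 3784 were overlapped (37.0%, exact 95% interval 35.4 to 38.5%), against 51.1% of shared peaks (50.3 to 51.9%). The share was 23.4% (21.2 to 25.7%) in genes without a KO peak and 44.8% (42.8 to 46.8%) in genes with another. Of the genes themselves, 38.1% of the first class and 73.9% of the second had a RIP peak anywhere. In genes that held both kinds of peak the shares were 45.8 and 60.1%. With length also matched, they were 44.8 against 46.7% for 101 to 200 bases and 56.5 against 57.7% for 201 to 400 bases, where the intervals overlapped. Up to 100 bases they were 41.4% (38.1 to 44.7%) against 54.5% (48.2 to 60.7%). By host level the control-only share was below the shared one in each of the 5 bins, from 33.7 against 56.2% in the lowest to 20.2 against 30.2% in the highest.

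Unnamed gene models aside, the lowest-score control-only peaks under a RIP peak were in B2m and H2-K1, the light chain and a heavy chain of MHC class I. Next came Junb, an AP-1 transcription factor, Col6a2, a collagen VI chain, Osr1, a zinc finger transcription factor, and Ccl2, a chemokine that attracts monocytes. The B2m peak was 90 bases in the 3′ UTR (chr2:122152757-122152846, score 1e-169) and the gene kept another KO peak. Osr1 and Ccl2 kept none.

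**Figure D3:**
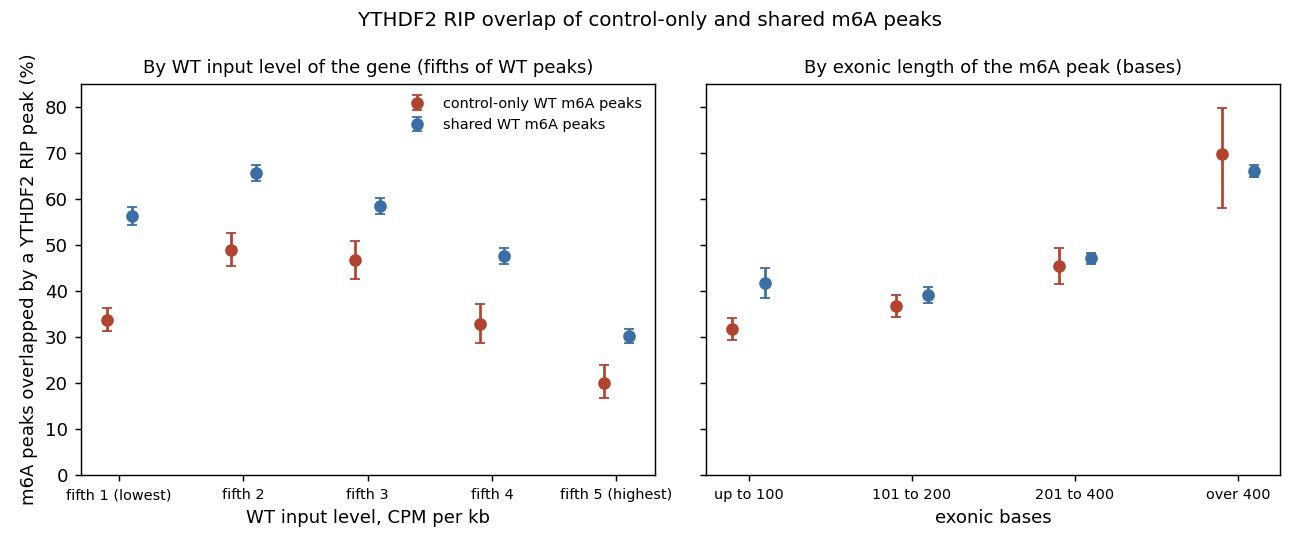
Percent of control-only and shared WT m6A peaks overlapped by a YTHDF2 RIP peak (vertical axis), in 5 equal bins of the gene's WT input level in CPM per kb (left) and by exonic length in bases (right). Points are shares and whiskers exact 95% intervals for counting error. Control-only points lie below shared points in each bin of level, while the intervals overlap for peaks of 101 bases or more.

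The input libraries show whether the mRNA of these genes was still there. The peak caller, and whether it set the immunoprecipitates against these same inputs, is not given, so input levels may enter the rule and the class counts below are descriptions. In bulk RNA, fewer cells with a transcript and less of it per cell cannot be told apart. Of the 1113 genes without a KO peak, 1066 passed the filter on low counts and 47 did not. The median of their levels came to 10.7, 10.1 and 10.4 CPM across WT libraries and 9.83, 7.58 and 7.57 in the KO-labelled ones. Their median log2 fold change was -0.20, against -0.01 over all 18969 tested genes, and 66.4% were below 0. Lower in the KO-labelled inputs by the edgeR test were 43 (4.03%), against 1.54% of all tested genes, and higher were 17 (1.59%), against 2.99%. The KO-labelled libraries were all below all WT libraries in 27.0% of the class and in 16.2% of all tested genes. These calls rest on the libraries used, since without KO-labelled replicate 1 the same test called 426 of 1070 lower (39.8%, against 16.1% of all genes) and 165 higher (15.4%, against 19.3%), and without other libraries it called 0 to 7 lower. In genes with another KO peak the same fit called 28 of 1827 lower (1.53%) and 58 higher (3.17%), near the shares of all tested genes, with a median log2 fold change of 0.02 and median levels of 41.1 CPM in WT and 41.2 in the KO-labelled cells. Without KO-labelled replicate 1 their shares were 23.9% lower and 26.2% higher, and by DESeq2 9.41 and 15.2%, against 7.02 and 11.6% of all genes.

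The share of marked genes with no KO peak was highest where the input fold change was lowest. Of the 161 marked genes with a log2 fold change of -1 or lower, 108 had no KO peak (67.1%, 59.2 to 74.3%). The share was 39.6% between -1 and -0.5, 17.8% between -0.5 and -0.2, and 7.41% (330 of 4455) between -0.2 and 0.2. It was 5.28% from 0.2 to 0.5, 9.18% from 0.5 to 1 and 21.3% (32 of 150) at 1 or higher. Genes in the outer bins were also the least abundant, with median WT levels of 6.32 and 8.89 CPM in the lowest and highest bins against 53.1 in the middle one. In 5 equal bins of marked genes by level, the median log2 fold change of genes without a KO peak ran from -0.32 in the lowest to 0.004 in the highest, and that of genes with all peaks shared from 0.15 to 0.03. Without KO-labelled replicate 1, the share in the lowest bin was 58.4%. Within 1.5-fold of their WT input level were 719 of the 1066 tested genes without a KO peak (67.4%). At 10 CPM or more in the KO-labelled inputs were 507 (47.6%), and 425 met both conditions. At the other end, 117 were under 1 CPM. The quartiles of log2 fold change in this class were -0.581 and 0.108, a wider and lower range than the -0.288 and 0.238 of all tested genes.

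**Figure D4:**
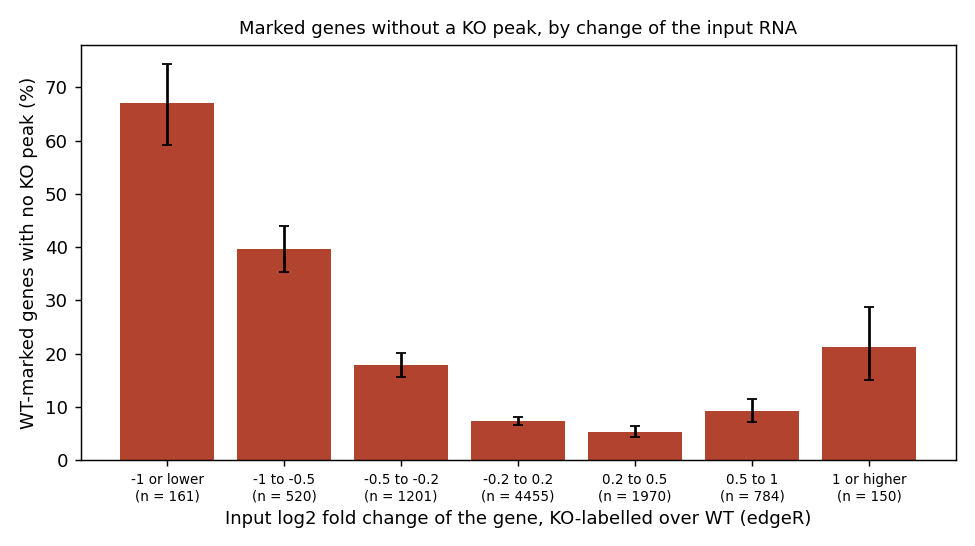
Percent of WT-marked genes that had no KO peak (vertical axis) in bins of the edgeR log2 fold change of the gene's input, KO-labelled over WT (horizontal axis). Whiskers are exact 95% intervals for counting error and n is the number of marked genes. The share is 67.1% in the lowest bin, 5.28% from 0.2 to 0.5 and 21.3% in the highest.

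Of the genes without a KO peak that were named for their high KO-labelled level, 3 encode glycolytic enzymes, a grouping made after their names were seen. Tpi1, triosephosphate isomerase, had a peak in coding sequence (chr6:124811882-124812587, score 2e-65) and stood at 1136, 1392 and 1309 CPM in WT and 1159, 1540 and 1519 in the KO-labelled inputs. Gpi1, glucose-6-phosphate isomerase, had one running past the stop codon (chr7:34202136-34202465, score 2.5e-38) and measured 662, 715 and 710 CPM against 617, 960 and 926. Pgam1, phosphoglycerate mutase, had one at the start of its coding sequence (score 1.3e-43) and measured 551, 674 and 612 CPM against 542, 866 and 861. In all 3, KO-labelled replicate 1 was within or below the WT range and the other two libraries were above it, and none passed the test (adjusted p of 0.51, 0.31 and 0.30 by edgeR). Scd2, a fatty acid desaturase, had a 61-base peak (score 7.9e-26) and rose from 864, 844 and 791 CPM to 1075, 1025 and 1035, without overlap (log2 fold change 0.33, SE 0.06, adjusted p = 0.041). Rpl3, a ribosomal protein, and Ppia, cyclophilin A, also lost their peaks with KO-labelled means of 1366 and 1354 CPM. Reads of both, like those of Rpl21 and Hmgn2, can be shared with processed pseudogenes. The control-only peaks of Rpl21 and Hmgn2 had the lowest scores, unnamed gene models aside (listed at 0 and 1e-246).

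In the MHC class I genes, peaks with very low scores disappeared while the input levels overlapped. H2-D1, a heavy chain, had its exon 2 peak (score 1e-103) and 3 more control-only peaks and no KO peak. Its level was 1425, 1407 and 1325 CPM in WT and 1210, 1728 and 1651 in the KO-labelled cells (log2 fold change 0.14, SE 0.13, adjusted p = 0.50). H2-K1 kept another KO peak and measured 1494, 1426 and 1434 CPM against 1170, 1592 and 1587. The heavy chains are close relatives, so their reads may be divided between them. B2m stood at 801, 827 and 788 CPM against 658, 893 and 825. Of the 19 marked genes in the antigen presentation list, 8 (42.1%) had a control-only peak, against 31.3% of all marked genes. H2-D1 was the sole one with no KO peak. Of the list's 42 WT peaks, 13 (31.0%) were control-only, against 19.7% of all WT peaks. Over the whole list, edgeR called 6 of 24 tested genes lower and 2 higher, against 1.54 and 2.99% of all tested genes.

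The interferon list had 34 marked genes, of which 12 (35.3%) had a control-only peak, against 31.3% of all marked genes, and 4 had no KO peak. Zbp1, a sensor of Z-form nucleic acid, had a 449-base peak in the 3′ UTR (chr2:173206732-173207180, score 2e-77). Its mRNA was 68.8, 60.6 and 58.2 CPM in WT and 22.3, 18.0 and 18.9 in the KO-labelled inputs, so the groups were well apart, and it fell by 1.66 on the log2 scale (SE 0.11, adjusted p = 0.0072). Ifitm1, which encodes an antiviral membrane protein, fell from 140, 135 and 138 CPM to 59.99, 25.03 and 23.7 (log2 fold change -1.92, SE 0.34, adjusted p = 0.035). Irf7, a transcription factor of the interferon response, fell from 35.7, 32.9 and 30.7 CPM to 23.2, 17.6 and 19.5 (log2 fold change -0.72, SE 0.13, adjusted p = 0.034). Dhx58, an RNA helicase that tunes RIG-I signalling, was 25.9, 20.2 and 20.7 CPM against 17.2, 11.4 and 12.8, with no overlap but an adjusted p of 0.068. Over the whole list, 5 of 43 tested genes were lower and 3 higher, against 1.54 and 2.99% of all tested genes. The 4 of 34 without a KO peak come to 11.8%, as over all marked genes, and 13 of 76 WT peaks (17.1%) were control-only.

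Chemokine and NF-kB genes had control-only shares above that of all WT peaks, 19.7%, in small numbers of peaks. In the chemokine list 6 of 15 WT peaks (40%) were control-only, over 6 marked genes, and in the NF-kB list 19 of 55 (34.5%), over 27 marked genes. Of these 27, 13 (48.1%) had such a peak, against 31.3% of all marked genes. Ccl2 lost both of its peaks (scores 1e-64 and 7.9e-21) and measured 67.8, 95.7 and 99.5 CPM in WT and 67.7, 271 and 269 in the KO-labelled inputs. Nfkbia, the inhibitor that holds NF-kB in the cytoplasm, lost its peak over the stop codon region (score 2.5e-31) and measured 31.6, 38.4 and 42.8 CPM against 35.9, 135 and 131. In both genes 2 KO-labelled libraries were far above WT and replicate 1 was not, and neither passed the test (adjusted p of 0.14 and 0.093). Chuk, the IKK-alpha kinase, and Map3k14, the kinase NIK, had no KO peak at levels of 74.0 and 7.89 CPM in WT and 70.9 and 6.87 in the KO-labelled cells. None of the 31 tested genes of the NF-kB list was called by edgeR, while 10 had an unadjusted p under 0.05 and DESeq2 called 5, against 29.5 and 18.7% of all tested genes. Nfkb1, Rela, Rel, Nfkbie, Ikbkg, Tnfaip3, Tnip1, Tab3, Ripk1 and Irak1 had a control-only peak beside another KO peak.

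**Figure D5:**
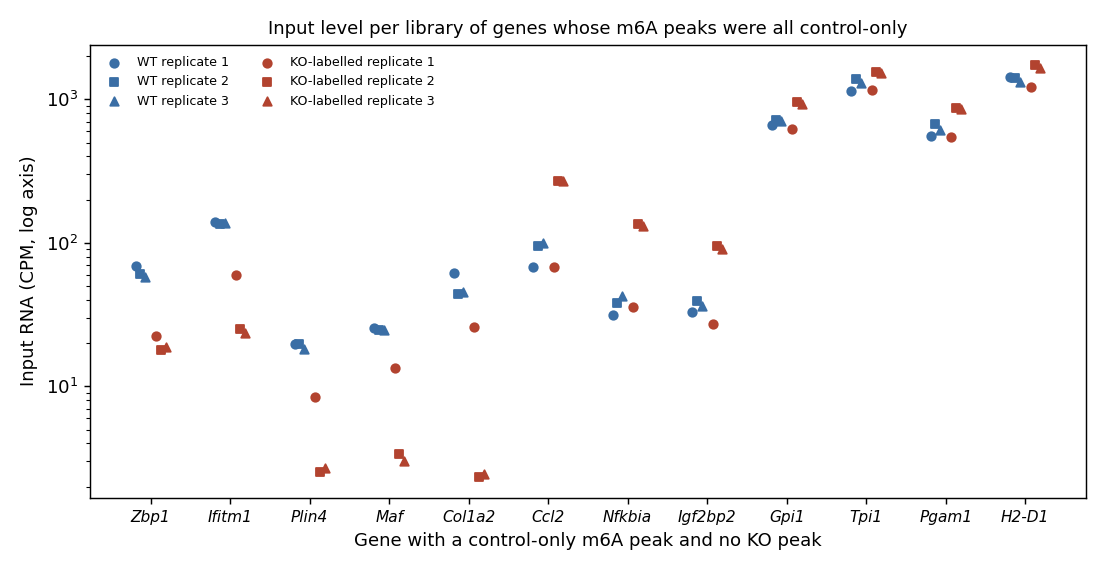
Input level in CPM (log axis) of 12 genes whose m6A peaks were all control-only, with 1 point for each of the 3 WT and 3 KO-labelled libraries. Zbp1, Ifitm1, Plin4, Maf and Col1a2 lie lower in each KO-labelled library, while Ccl2, Nfkbia and Igf2bp2 lie higher in 2 of 3. Gpi1, Tpi1, Pgam1 and H2-D1 stay above 500 CPM in each library.

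Among regulators of m6A and of mRNA decay, 3 genes lost every peak, 1 in each list, where 11.8% of all marked genes had no KO peak. Among writers and erasers, 3 of 13 marked genes (23.1%) had a control-only peak, against 31.3% of all marked genes. Of these, 1, Mettl5, a methyltransferase of ribosomal RNA, had no KO peak. Its level was 17.1 ± 2.0 CPM in WT (SD, n = 3) and 18.4 ± 0.42 (SD, n = 3) in the KO-labelled cells. Among readers, 2 of 11 (18.2%) had a control-only peak. Igf2bp2, an m6A reader linked to mRNA stability, had no KO peak, with 33.0, 39.1 and 36.2 CPM against 27.3, 94.3 and 90.7 (adjusted p = 0.17). The peaks of Ythdf2 itself and of Cx3cl1, the chemokine fractalkine, were shared. In the decay list 12 of 31 marked genes (38.7%) had a control-only peak and Cnot10, a CCR4-NOT subunit, had no KO peak. None of the tested genes in these 3 lists was called by edgeR. At an unadjusted p under 0.05 were 5 of 14 writers and erasers, 3 of 12 readers and 5 of 34 decay genes, and DESeq2 called 3, 2 and 2, where the shares over all tested genes were 29.5 and 18.7%.

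None of the listed chromatin regulators lost all of its peaks, against 11.8% of all marked genes, but the gene shares were not matched for peaks per gene. The 2 chromatin lists held 174 WT peaks in 40 marked genes and 135 in 33, where all 9427 marked genes held 19236. Of the 1113 genes without a KO peak, 902 had a single WT peak. Of 40 marked histone lysine methyltransferase and demethylase genes, 18 (45%) had a control-only peak, against 31.3% of all marked genes, among them Kmt2a, Kmt2d, Setd2, Nsd1 and Kdm6b, and 27 of their 174 WT peaks (15.5%) were control-only. Of 33 marked acetyltransferase, deacetylase and remodeller genes, 10 (30.3%) had one, such as Crebbp, Ep300 and Smarca4, and 14 of 135 WT peaks (10.4%) were control-only. The Hippo list was low, with 3 of 65 peaks (4.62%) in 23 marked genes, and the oxidative phosphorylation list had 0 of 12 peaks in 8 marked genes. Signalling lists were nearer to the share of all WT peaks, with 12 of 60 peaks (20%) for WNT, 12 of 47 (25.5%) for TGF-beta and 12 of 54 (22.2%) for NOTCH. Genes without a KO peak in these were Dvl1, a scaffold of WNT signalling, Tgfb2, a ligand, Acvr2b, an activin receptor, Tgif2, a SMAD co-repressor, Jag2, a NOTCH ligand, Mib1, the ubiquitin ligase that drives ligand uptake, and Rfng, a glycosyltransferase of the NOTCH receptor. None of these 7 was called by edgeR, while 3 had an unadjusted p under 0.05 and DESeq2 called 3, against 29.5 and 18.7% of all tested genes. The whole lists did hold called genes. By edgeR, 6 of 31 tested TGF-beta genes were higher and 0 lower. Of 31 WNT genes 2 were higher and 1 lower, and of 24 NOTCH genes 1 was higher and 0 lower. Over all tested genes 2.99% were higher and 1.54% lower.

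The remaining lists were close to the WT list as a whole or below it. The cell-cycle list had 13 of 67 peaks control-only (19.4%), and Ccnb1, Ccnb2, Cdkn1a and Rb1, the retinoblastoma gene, had no KO peak. Over that whole list, edgeR called 8 of 41 tested genes higher and 0 lower, against 2.99 and 1.54% of all tested genes. Cdkn1a measured 51.0, 52.1 and 50.9 CPM in WT and 43.1, 101.1 and 90.5 in the KO-labelled cells, with an adjusted p of 0.19. In DNA repair 11 of 89 peaks (12.4%) were control-only, and Trp53 had no KO peak. The SR splicing list had 13 of 68 (19.1%), with Srsf6, a splicing factor, losing all, the RAS and MAPK list 7 of 49 (14.3%), with the kinase Braf, and the AP-1 and KLF list 3 of 38 (7.89%), with no gene losing all. Of the ribosomal protein genes, 1 of 20 peaks (5.00%) was control-only, that of Rpl3.

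Among the other genes named for low-score control-only peaks, several varied among the KO-labelled libraries. Col1a2, a type I collagen chain, had 2 control-only peaks, one at chr6:4527895-4528344 (score 1e-109), and no KO peak. It measured 62.0, 44.1 and 45.5 CPM in WT and 25.8, 2.34 and 2.47 in the KO-labelled cells, each below WT, but with an adjusted p of 0.14. The 5 fibroblast markers, of which Col1a2 is one, summed to 272 to 306 CPM in the WT libraries and 225 to 232 in the KO-labelled ones, and their part in these values was not tested. Col6a2, with another KO peak, measured 515, 388 and 388 CPM against 257, 76.5 and 83.0 (adjusted p = 0.076). Scara5, a scavenger receptor for ferritin, measured 45.1, 64.1 and 61.5 CPM against 71.5, 10.5 and 10.9, with replicate 1 above WT. Neat1, the long noncoding RNA scaffold of paraspeckles, had a control-only peak at chr19:5842426-5842694 (score 1e-115), the strongest of 3, beside 6 KO peaks. It fell from 959, 753 and 797 CPM to 599, 394 and 382 (log2 fold change -0.87, SE 0.19, adjusted p = 0.049).

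Some genes lost every peak although their mRNA rose. Of the 17 called higher, unnamed gene models aside, those with the greatest rise were Fam131b, Atoh8, a basic helix-loop-helix factor, Rasl11a, a small GTPase, Ece1, the endothelin-converting protease, and Btg2, an anti-proliferative adaptor of the deadenylase. Ece1 measured 20.6, 17.9 and 16.2 CPM in WT and 33.6, 47.6 and 48.3 in the KO-labelled inputs (log2 fold change 1.25, SE 0.17, adjusted p = 0.023). Rasl11a measured 1.65, 1.83 and 1.82 CPM against 4.90, 4.15 and 4.85 (log2 fold change 1.39, SE 0.17, adjusted p = 0.020). The 5 rises ranged from 1.001 for Btg2 to 2.06 for Fam131b on the log2 scale. The lowest-score peaks they held had scores from 1.6e-11 for Fam131b to 5.8e-07 for Atoh8.

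The greatest called falls in genes without a KO peak were in Myh14, a non-muscle myosin heavy chain, Tenm4, a teneurin, Tgtp1, an interferon-induced GTPase with near-identical copies, Dlx4, a homeobox gene, and Cd48, a cell-surface ligand. They ran from -2.63 for Myh14 to -2.12 for Cd48 on the log2 scale, and their KO-labelled means lay between 0.85 CPM for Myh14 and 4.44 CPM for Tenm4. In genes that kept another KO peak, the called rises of greatest size were in Sipa1l2, Cp (the copper oxidase ceruloplasmin), Lamb1 (a laminin chain), Shroom4 and Nid2 (the basement membrane protein nidogen 2), at 1.77 to 1.27. The called falls of greatest size there were in Plcb4, a phospholipase C, Sp110, a nuclear body protein, Tmem140, Nlrp4e and Gbp6, an interferon-induced GTPase. These falls ran from -1.74 for Plcb4 to -0.999 for Gbp6. In all of these called genes the 3 KO-labelled libraries lay on the same side of the 3 WT libraries. Of the 97 control-only peaks with a score of at most 1e-20 in genes without a KO peak, in 85 genes, 83 genes were tested. Within 1.5-fold of WT were 38 of the 83, where 67.4% of all tested genes without a KO peak were. At least 2-fold lower were 20 and at least 2-fold higher 5, and the test called 8 lower and 2 higher. Of all tested genes 4.45% were at least 2-fold lower, 2.96% at least 2-fold higher, and 1.54 and 2.99% were called.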

How the data were processed

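Per the labels' protocols, polyadenylated RNA was fragmented for m6A immunoprecipitation, and libraries were read as paired ends. The deposited peak lists are spliced intervals with a gene and a score, read here as a p-value from its values. The deposited counts are whole reads per gene for the 6 inputs. The submitters' processing notes list HISAT2, HOMER, ChIPseeker and the mm10 build without a role. Not given in these sources are the peak caller, the counter and how replicates were combined.

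Peaks were compared by exonic blocks on the same strand with at least 1 shared base, and the number of control-only peaks was checked with bedtools 2.31.1. Shares carry exact (Clopper-Pearson) 95% intervals, which cover counting error only. Positions and sequences came from GENCODE M21, on 1 coding transcript per gene. Gene IDs matched exactly for 9143 of the WT list's genes, 278 by another version, and 6 did not match.

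Counts were tested with edgeR 4.0.16 (quasi-likelihood, TMM, filterByExpr, Benjamini-Hochberg adjustment over 18969 genes, threshold 0.05) in R 4.3.3, after a test on simulated data. SEs were taken as the log2 fold change divided by the root of F. CPM used TMM-scaled totals, and 3 counts were worth 0.0582 to 0.0652 CPM. DESeq2 1.42.0, other filters, overlaps and left-out libraries were alternatives. Genes were named by rule: lowest score, most peaks, highest level, RIP overlap, greatest called change, list membership and nearness to the threshold. Unnamed gene models (Gm or Rik symbols and accession-like names) were left out of these rankings, and rankings by score took 1 peak per gene. Members and lists were chosen with earlier results of these data known, so a list's share is no independent support.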

Additional observations from a re-analysis of the deposited data

How the results depend on the processing

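The number of control-only peaks, 3784, was 3600 to 4792 under 6 other definitions, the highest where a KO peak had to cover at least 50% of the WT peak. RIP overlap was 30.9% with at least 50% of the peak covered (shared peaks 41.1%), 33.3% with 1 peak per gene (46.5%) and 32.8% with RIP p of at most 1e-05 (47.4%). The stop-codon share was 24.7% with 1 peak per gene (shared 36.3%). The GGACT share was 12.7% in the central 100 bases (shared 16.1%), and GGAC was in 47.1% (74.2%). Gene counts depended on the tool and libraries. All genes lower: DESeq2 called 1332, the replicate block 26, no filter 41, and leaving out 1 library 0 to 3144. All genes higher: 2209, 45, 70 and 0 to 3782. Genes without a KO peak, lower: 178, 2, 8 and 0 to 426. The same genes, higher: 76, 2, 2 and 0 to 165. Genes with another KO peak, lower: 172, 5, 2 and 0 to 437. The same genes, higher: 278, 3, 5 and 0 to 479. The highest values came without KO-labelled replicate 1, and where edgeR called 0 of the first class lower, 147 and 169 were under an unadjusted p of 0.05. Of 27 named genes called by edgeR, 3 were called in at least 2 of the 6 fits with a library left out. The share of 2-fold fallen genes without a KO peak was 58.4% without KO-labelled replicate 1 and up to 66.3% without another library. Which of lower and higher calls was the more numerous also changed: with the replicate block, genes with another KO peak had 5 lower and 3 higher. Same-numbered WT and KO-labelled inputs deviated together only weakly (r of 0.049, 0.115 and 0.05), so the replicate block was not used as pairing, although each sample correlated best with its own number.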
